A study of Homo sapiens with 4 samples.

Results

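The genes described here encode RNASET2, 5 secreted ribonucleases of the RNase A family (RNASE1, RNASE2, RNASE4, RNASE6 and ANG), the ribonuclease inhibitor RNH1, the lysosomal nucleases PLD3 and DNASE2, and RNASEK. They were taken by symbol, and each of the 10 names matched 1 row in a table of 58302. Expression was measured by sequencing total RNA from BLaER1, an established human B cell leukaemia line that carries C/EBPα fused to the hormone-binding part of the oestrogen receptor in both stages. The undifferentiated stage has 2 libraries and the differentiated stage has 2. Differentiated cells received IL-3, M-CSF and 100 nM oestradiol for 5 to 6 days, and the protocol writes 10 ng/ml next to IL-3 with no amount of its own for M-CSF. Whether replicate libraries are separate cultures is not stated, so p-values measure only how far these libraries differ, and that spread may be technical.

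Phagocytes take up RNA and DNA with dead cells and microbes and break them down in acidic endosomes and lysosomes. RNase T2 and DNase II are endonucleases of this compartment, and PLD3 is a transmembrane exonuclease that removes nucleotides from the 5′ end of single strands. RNase T2 is known to cut RNA into pieces that TLR8 recognises, and RNase 2 has been described to act with it. Enzymes of the RNase A family are secreted or stored in granules, and the cytosolic protein RNH1 binds and blocks them.

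Values are TPM, a relative transcript abundance that takes gene length into account, so levels of different genes can be compared within a library. TPM hold no sequencing depth, and the depth of each library is unknown. The labelled stages matched the markers examined. The 12 macrophage markers summed to 805 and 893 TPM in the differentiated libraries and to 9.66 and 6.81 TPM in the undifferentiated libraries, and the 12 pre-B and B cell markers to 19.8 and 19.5 TPM against 516 and 302 TPM. Of the total TPM, 12.2% and 13.5% fell on protein-coding genes after differentiation and 23% and 15.6% before it, and the genes tested were higher in undifferentiated replicate 1 than in replicate 2 by a median of 0.50 on the log2 scale. The part of these library differences in the results was not tested.

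The nuclease genes together took a larger part of the transcriptome in differentiated cells. Their summed level was 175 and 204 TPM in the differentiated libraries and 20.8 and 16.2 TPM in the undifferentiated libraries. The makeup of this sum differed too. RNASE1 contributed 42.5% and 44.1% of it after differentiation and was listed at 0 before, when RNASEK contributed 56.3% and 55.1%. These are levels in bulk RNA, in which fewer cells of a type and less RNA per cell cannot be told apart.

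**Figure D1:**
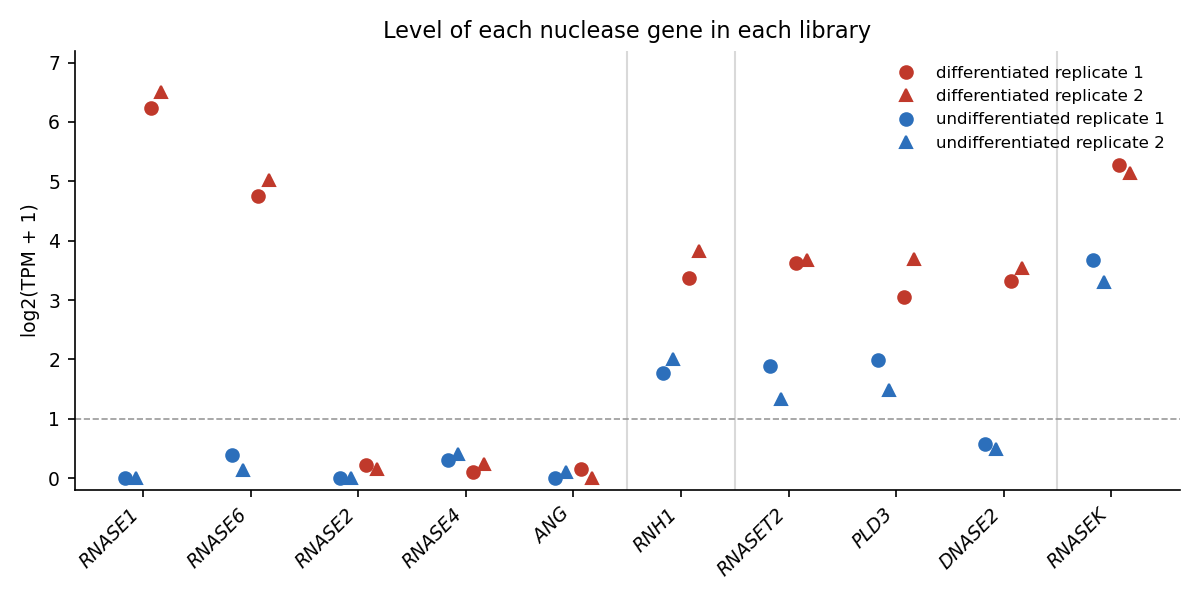
Level of each of the 10 genes in each of the 4 libraries as log2(TPM + 1). Red marks differentiated and blue undifferentiated libraries, circles are replicate 1 and triangles replicate 2, the dashed line is 1 TPM, and vertical lines separate the RNase A family, the inhibitor RNH1, the lysosomal enzymes and RNASEK. RNASE1 and RNASE6 are high in both differentiated libraries, whereas RNASE2, RNASE4 and ANG stay below 1 TPM in every library.

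Among the secreted RNase A family enzymes, RNASE1 and RNASE6 were abundant in differentiated cells, and RNASE2, RNASE4 and ANG were not. RNASE1 (ENSG00000129538) encodes the human counterpart of pancreatic RNase A, which is also released by endothelium and degrades RNA outside cells. Differentiated cells had 74.65 and 89.90 TPM, and in undifferentiated cells the gene was listed at 0 in each library. The groups did not overlap, and the gene was called higher (limma, adjusted p = 1.03e-07). No fold is given against a stage listed at 0. With 82.3 ± 10.8 TPM (SD, n = 2) it was the most abundant of the 10 genes after differentiation, above 99.2% of the protein-coding genes in each of the 2 libraries.

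RNASE6 (ENSG00000169413) encodes RNase 6, an antimicrobial ribonuclease of monocytes and macrophages. Its level was 25.85 and 31.60 TPM after differentiation, against 0.31 and 0.10 TPM before it. Both differentiated libraries lay far above both undifferentiated ones. The means were 28.7 ± 4.07 and 0.205 ± 0.148 TPM (SD, n = 2), and the difference on the log2(TPM + 1) scale was 4.62 ± 0.38 (SE, adjusted p = 2.25e-06). The added pseudocount compresses a change from so low a level: the difference was 6.65 with a pseudocount of 0.1 and 2.69 with a pseudocount of 5. Rescaling the values over protein-coding genes gave 6.83.

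RNASE2, RNASE4 and ANG were below 1 TPM in all libraries and entered no test under the filter on low values. RNASE2 (ENSG00000169385), the eosinophil-derived neurotoxin, was listed at 0.17 and 0.11 TPM after differentiation and at 0 in both libraries before it. Its close relative RNASE3 was listed at 0.09 TPM in differentiated replicate 1 and at 0 in the other libraries. RNASE4 (ENSG00000258818), an enzyme that prefers to cut after uridine, was listed at 0.08 and 0.18 TPM after differentiation, against 0.23 and 0.32 TPM before it, the one gene of the 10 with both differentiated values below both undifferentiated ones. ANG (ENSG00000214274), angiogenin, a weak ribonuclease that cuts tRNA in stressed cells, was listed at 0.11 and 0 TPM after differentiation, against 0 and 0.08 TPM before it, and its groups overlapped. Without the filter these genes could be fitted, and none of the 3 was called (RNASE2 adjusted p = 0.122, RNASE4 adjusted p = 0.47, ANG adjusted p = 0.863).

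RefSeq gives RNASE4 and ANG 2 start sites in common. In GENCODE release 29, 675 of the 1430 exonic bases of ANG also belong to RNASE4, so reads from the shared exons can be assigned to either gene. The log2 ratio of RNASE4 to ANG, with 0.1 TPM added to each, was -0.22 and 1.49 in the differentiated and 1.72 and 1.22 in the undifferentiated libraries. These values overlapped (two-sided exact permutation p = 0.667, where the smallest p that 2 against 2 libraries can give is 0.333). ANG was listed at 0 in differentiated replicate 2 and undifferentiated replicate 1, so the added 0.1 TPM sets the denominator there. The difference between stages was -0.19 with a pseudocount of 1 and -1.31 with a pseudocount of 0.01, so it depends on the pseudocount.

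The other 8 members of the RNase A family examined, RNASE3 and RNASE7 to RNASE13, summed to 0.16 and 0.07 TPM in the differentiated libraries and to 0 in both undifferentiated libraries, and 5 of them were listed at 0 in every library. Markers of eosinophil and neutrophil granules, endothelium and exocrine pancreas were low in all 4 libraries. The 11 eosinophil and neutrophil granule markers summed to 0 to 0.95 TPM per library, with PRG2, CLC and ELANE at 0 in all 4. MPO was listed at 0.47 TPM in differentiated replicate 1 and at 0 in the other libraries. CTSG was listed at 0 after differentiation, against 0.13 and 0.95 TPM before it. The 8 endothelial markers summed to 0.55 to 1.21 TPM. Of these, VWF was listed at 0.53 and 0.16 TPM after differentiation and at 0 before it. ESAM was listed at 0.13 and 0.18 TPM after, against 0.67 and 0.54 TPM before. The 6 exocrine pancreas markers summed to 0 to 0.26 TPM, with CPA1 and PNLIP at 0 in all 4. PRSS1 was listed at 0.13 and 0.15 TPM after differentiation and at 0 before it. The 8 T cell markers summed to 6.86 and 9.95 TPM after and to 110 and 51.5 TPM before differentiation, with the receptor constant gene TRAC at the largest share before it (3.82 and 6.61 against 109.90 and 51.47 TPM). CD4, which macrophages also carry, was called higher at 2.07 and 3.03 TPM against 0 and 0.05 TPM (adjusted p = 6.71e-05). CD2 was listed at 0.7 and 0.13 TPM and CD3G at 0.13 and 0.16 TPM after differentiation, both at 0 before it, CD5 and CD8A reached at most 0.14 TPM, and CD3D and CD3E were at 0 in all 4.

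The 250 bases before each RefSeq start site (GRCh38.p14) were taken for 9 of the 10 genes, the other being RNASEK, and searched on both strands for GAGGAA, a core of sites bound by the myeloid factor PU.1, for TTGCNNAA, a form of the C/EBP site, and for CACGTG, the E-box bound by lysosomal gene regulators such as TFEB and by other factors. The motifs do not overlap each other in the matches shown. GAGGAA occurs in 23.6%, TTGCNNAA in 9.06% and CACGTG in 6.32% of 34943 such windows. GAGGAA was found for RNASE1, RNASE6, RNASE4, ANG and PLD3, TTGCNNAA for RNASE2 and CACGTG for PLD3 and RNH1. ANG has 3 windows, RNASE1, RNASE4, RNH1 and PLD3 have 2 each, and RNASET2, RNASE2, RNASE6 and DNASE2 have 1 each. The shares above are per window, so the number of genes with a match cannot be set against them. The sites shown are those of RNASE1 and RNASE6, the abundant members of the family, and of RNASE2, the described partner of RNase T2, written on the gene's strand with the motif in capitals.
RNASE1, chr14:20802950-20802973, minus strand, GAGGAA in reverse: caccactccTTCCTCacgtccttg
RNASE1, chr14:20802895-20802918, minus strand, GAGGAA in reverse: cccacccttTTCCTCttggaagcc
RNASE6, chr14:20781026-20781049, plus strand, GAGGAA in reverse: agtgatcagTTCCTCaaaactgtg
RNASE2, chr14:20955333-20955358, plus strand, TTGCNNAA: aaaggatgaTTGCACAAgtggactat
The RNASE1 matches begin 120 and 65 bases before the start, the RNASE6 match 233 bases and the RNASE2 match 145 bases before it. The match to the C/EBP motif stands before a gene listed at 0.17 TPM or less. RNASE4 and ANG share 1 match, ggtccagctGAGGAAggagcgcgg (chr14:20684375-20684398, plus strand), because the window before this start is the same for both genes. A match is a description of the letters and not a measured binding site.

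RNH1 (ENSG00000023191), the inhibitor of RNase A family enzymes, was present at 9.36 and 13.19 TPM in differentiated cells, against 2.41 and 3.04 TPM in undifferentiated cells. The groups did not overlap. The means were 11.3 ± 2.71 and 2.72 ± 0.445 TPM (SD, n = 2), and the log2 difference was 1.71 ± 0.39 (SE, adjusted p = 0.00333). Its call was lost without differentiated replicate 1 (adjusted p = 0.141) or 2 (adjusted p = 0.251) and with no filter on low values (adjusted p = 0.0642). The summed level of the enzymes it binds differed more than its own. RNASE1, RNASE2, RNASE4, RNASE6 and ANG together reached 101 and 122 TPM in the differentiated libraries and 0.54 and 0.5 TPM in the undifferentiated libraries. Per unit of RNH1 mRNA this is 10.8 and 9.23 after and 0.224 and 0.164 before differentiation, a ratio that does not depend on scaling between libraries. On the log2 scale with 0.1 TPM added, the ratio averaged 3.31 ± 0.15 and -2.18 ± 0.29 (SD, n = 2), a difference of 5.49. The groups did not overlap (two-sided exact permutation p = 0.333, the smallest possible). Without RNASE1 in the sum, the difference was 3.55. The rise of the sum rests on RNASE1 and RNASE6, as RNASE2, RNASE4 and ANG were below 1 TPM in all libraries.

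RNASET2 (ENSG00000026297) was detected in both stages and rose with differentiation. It was present at 11.27 and 11.73 TPM in differentiated cells, against 2.70 and 1.52 TPM in undifferentiated cells. Both differentiated values exceeded both undifferentiated ones, with means of 11.5 ± 0.325 and 2.11 ± 0.834 TPM (SD, n = 2). The ratio of the means was 5.45, and the log2 difference 2.03 ± 0.39 (SE, 95% interval 1.18 to 2.88, adjusted p = 0.00105). The call was lost without differentiated replicate 1 (adjusted p = 0.136) or 2 (adjusted p = 0.145), and the difference fell to 1.22 with a pseudocount of 5. Relative to the RNase A family the order of levels reversed: RNASET2 was below RNASE1 and RNASE6 in both differentiated libraries and above both in both undifferentiated ones. The ratio of RNASET2 to RNH1, which does not act on RNase T2, was 1.2 and 0.889 after and 1.12 and 0.5 before differentiation, and these values overlapped.

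Across the 4 libraries, the protein-coding genes whose centred log2 values lay nearest to those of RNASET2 were APPL2, an endosomal adaptor, EVI2A, ATP6V0C, a subunit of the lysosomal proton pump, TPD52L2 and ITGAV, an integrin chain. Their Euclidean distances were 0.041, 0.064, 0.099, 0.108 and 0.114. The nearest gene, APPL2, was listed at 13.80 and 13.84 TPM after differentiation, against 3.46 and 1.98 TPM before it. With 4 libraries of 2 stages such likeness is not particular to the genes named: 29 of the 9295 protein-coding genes tested lay within 0.2. The nearest of the other nuclease genes was RNASEK at 0.36, and 150 protein-coding genes were nearer.

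The lysosomal nucleases PLD3 and DNASE2 were also higher in differentiated cells. DNASE2 (ENSG00000105612), the acid endonuclease that digests DNA of engulfed cells, was listed at 8.98 and 10.65 TPM after differentiation, against 0.49 and 0.40 TPM before it. The stages were far apart relative to the spread within each. The means were 9.82 ± 1.18 and 0.445 ± 0.0636 TPM (SD, n = 2), a ratio of 22.1, and the log2 difference was 2.90 ± 0.37 (SE, adjusted p = 5.02e-05). It was 4.53 after rescaling over protein-coding genes, 4.19 with a pseudocount of 0.1 and 1.44 with a pseudocount of 5.

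PLD3 (ENSG00000105223) was listed at 7.25 and 11.87 TPM after differentiation, against 2.95 and 1.80 TPM before it. Its replicates differed more than those of DNASE2, but the groups did not overlap. The means were 9.56 ± 3.27 and 2.38 ± 0.813 TPM (SD, n = 2), and the log2 difference was 1.63 ± 0.41 (SE, adjusted p = 0.00618), with 2.48 after rescaling over protein-coding genes and 0.97 with a pseudocount of 5. Its call was lost without differentiated replicate 1 (adjusted p = 0.15) or 2 (adjusted p = 0.313) and with no filter on low values (adjusted p = 0.0949). Its paralogue PLD4 went the other way, at 0.58 and 0.32 TPM after differentiation, against 1.01 and 1.51 TPM before it (log2 difference -0.64, adjusted p = 0.0378). PLD4 passed the filter through the undifferentiated libraries, and its call was lost under 9 of the 14 alternatives that tested it, among them median-of-ratios scaling (adjusted p = 0.104) and leaving out differentiated replicate 1 (adjusted p = 0.09), differentiated replicate 2 (adjusted p = 0.268) or undifferentiated replicate 2 (adjusted p = 0.076). The log2 ratio of PLD3 to PLD4 within a library, with 0.1 TPM added, was 3.43 and 4.83 after and 1.46 and 0.24 before differentiation. The groups did not overlap (two-sided exact permutation p = 0.333, the smallest possible), and this ratio was chosen after the values were seen.

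A window of PLD3 holds 2 copies of the CACGTG E-box in almost the same surroundings, and 1 RNH1 window holds a single copy. They are shown because the other 7 genes with a window have none.
PLD3, chr19:40348506-40348529, plus strand: cataaccatCACGTGaccgcccac
PLD3, chr19:40348551-40348574, plus strand: cgtaaccgtCACGTGaccgcccac
RNH1, chr11:506783-506806, minus strand: gttcgtcctCACGTGgccgtcaag
The PLD3 copies begin 180 and 135 bases before the start and the RNH1 copy 29 bases before it. The windows of RNASET2 and DNASE2 held none of the 3 motifs.

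RNASEK (ENSG00000219200) is named as a ribonuclease, and its small membrane protein is known as a component associated with the vacuolar proton pump. It was the most abundant of the 10 genes before differentiation, at 11.70 and 8.92 TPM, and was listed at 37.75 and 34.47 TPM after it. The groups did not overlap, and the means were 36.1 ± 2.32 and 10.3 ± 1.97 TPM (SD, n = 2), with a log2 difference of 1.72 ± 0.37 (SE, adjusted p = 0.00221). The call was lost without differentiated replicate 1 (adjusted p = 0.153) or 2 (adjusted p = 0.129) and, narrowly, with no filter on low values (adjusted p = 0.0503). A readthrough gene, RNASEK-C17orf49, shares 661 of the 1789 exonic bases of RNASEK in GENCODE release 29, so the split of reads between them is uncertain. The readthrough gene was listed at 1.46 and 0.96 TPM after differentiation, against 0.35 and 0.70 TPM before it, far below RNASEK. The downstream gene C17orf49 was listed at 6.71 and 10.32 TPM after differentiation, against 4.43 and 2.97 TPM before it, and was not called (adjusted p = 0.0606), but passed the test with quantile normalization (adjusted p = 0.0106), with scaling by the median of ratios (adjusted p = 0.00664) and without undifferentiated replicate 1 (adjusted p = 0.0307).

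**Figure D2:**
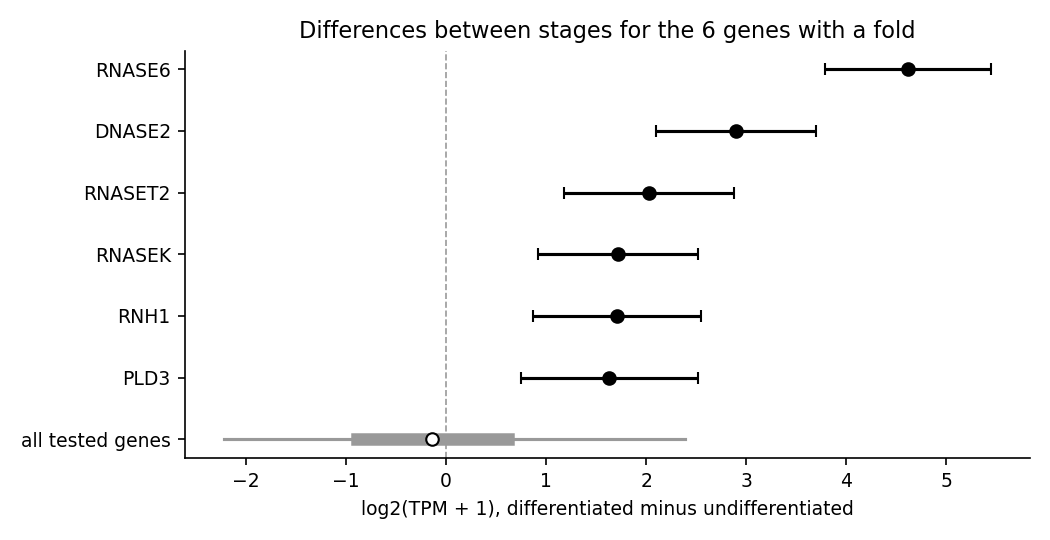
Log2 difference between stages, differentiated minus undifferentiated, on the log2(TPM + 1) scale, for the 6 tested genes with a fold; points are estimates and bars 95% intervals from the limma fit. The bottom row gives all 10180 tested genes, with the median as a circle at -0.14, the middle 50% as a thick bar from -0.89 to 0.62 and the 5th to 95th percentile as a thin line from -2.22 to 2.39. The 6 intervals lie above 0, and RNASE6 and DNASE2 exceed the 95th percentile. These 2 genes passed the filter through the differentiated libraries alone, so their place beyond the percentile is not counted as support.

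Read against the whole transcriptome, a change after differentiation was frequent. Of the 10180 tested genes, 41.4% were called, 18.6% higher and 22.8% lower. Of the 7 nuclease genes tested, 7 were called higher and 0 lower. Of these, RNASE1, RNASE6 and DNASE2 were below 1 TPM before differentiation and passed the filter through the differentiated libraries, so their calls are not counted as support. RNASET2, RNASEK, RNH1 and PLD3 had at least 1 TPM in all 4 libraries. With no filter, 4 of all 10 genes were called higher, where 2.35% of 29186 genes were: RNASE1, RNASE6, DNASE2 and RNASET2. The RNASET2 call was narrow (limma, adjusted p = 0.0493), close to the RNASEK value on the other side of the cutoff (adjusted p = 0.0503). The groups did not overlap, with differentiated cells higher, for 8 of the 10 genes, RNASE2 among them, against 24.9% of the same 29186 genes, those above 0 in any library. RNASE4 was in the other direction and ANG overlapped. In either direction this makes 9 of 10 genes, against 44.9%. RNASE2 and RNASE4 are in these counts and entered no test. Non-overlap was more frequent among the 10180 tested genes, most of which did not overlap: 3156 were higher and 3968 lower in differentiated cells. The 7 tested nuclease genes were all higher without overlap.

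RNASET2, RNASEK, RNH1 and PLD3 each lost their call when either differentiated library was left out, with log2 differences of 1.31 to 2.06 that stayed above 0. In a test against a log2 fold change of 1, the adjusted p was 0.0733 for RNASET2, 0.197 for RNASEK, 0.237 for RNH1 and 0.338 for PLD3. RNASE1, RNASE6 and DNASE2 were called under all 15 alternatives run. With no filter on low values the adjusted p was 0.0115 for RNASE1, 0.0138 for RNASE6 and 0.0199 for DNASE2. The other alternatives keep a filter that admits genes through the stage in which they are high, so the count of alternatives is not read as stability.

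**Figure D3:**
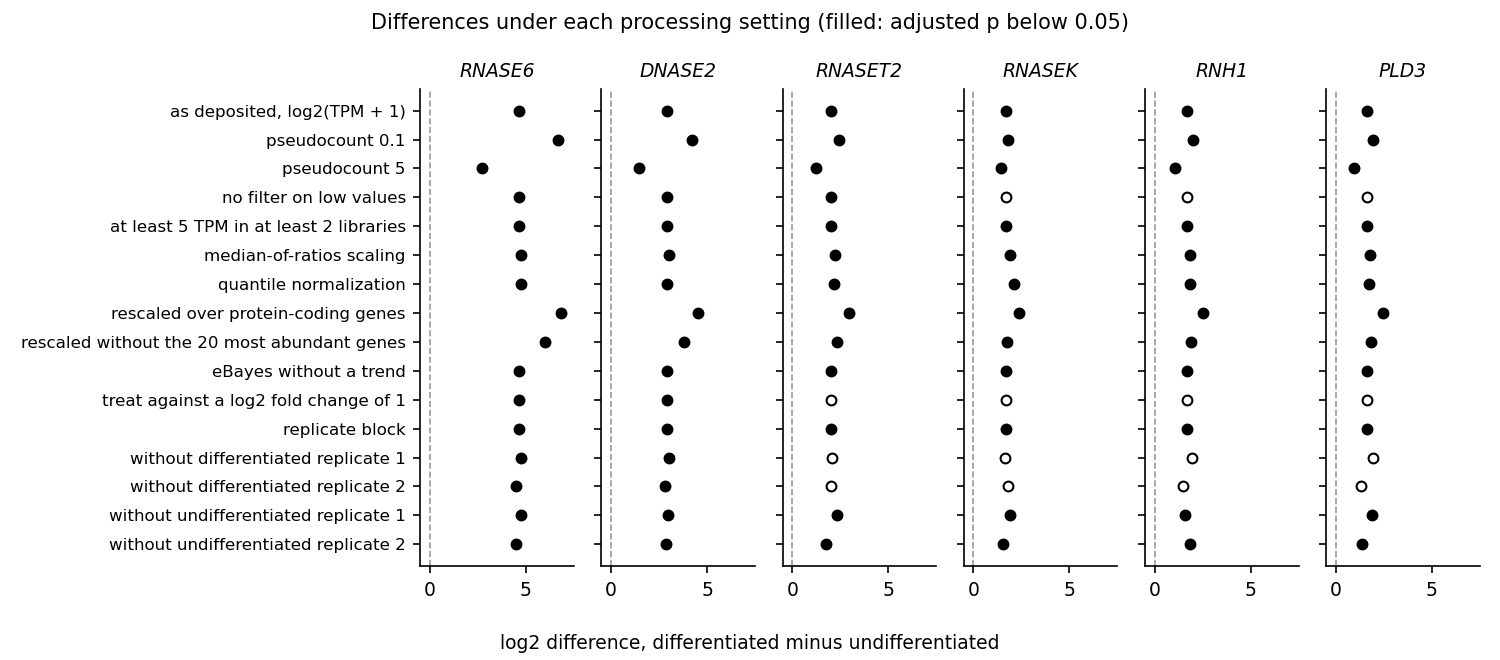
Log2 difference of 6 genes (horizontal axis, differentiated minus undifferentiated) under the values as deposited and 15 alternative settings (rows). Filled points have an adjusted p below 0.05 and open points do not; RNASE6 and DNASE2 are filled in every row, and RNASET2, RNASEK, RNH1 and PLD3 are open in the rows without a differentiated replicate.

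In differentiated cells the mean levels ran from RNASE1 through RNASEK and RNASE6 to RNASET2, RNH1, DNASE2 and PLD3, with RNASE2, RNASE4 and ANG last. The first 3 did not overlap with the next gene in this order. RNASET2, RNH1, DNASE2 and PLD3 averaged 11.5, 11.3, 9.82 and 9.56 TPM, and each overlapped with its neighbour. In undifferentiated cells RNASEK led at 10.3 TPM without overlap, and RNH1, PLD3 and RNASET2 followed at 2.72, 2.38 and 2.11 TPM, each overlapping with its neighbour. RNASE6, behind RNASE1 and RNASEK after differentiation, averaged 0.205 TPM before it, overlapping with RNASE4 at 0.275 TPM.

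**Figure D4:**
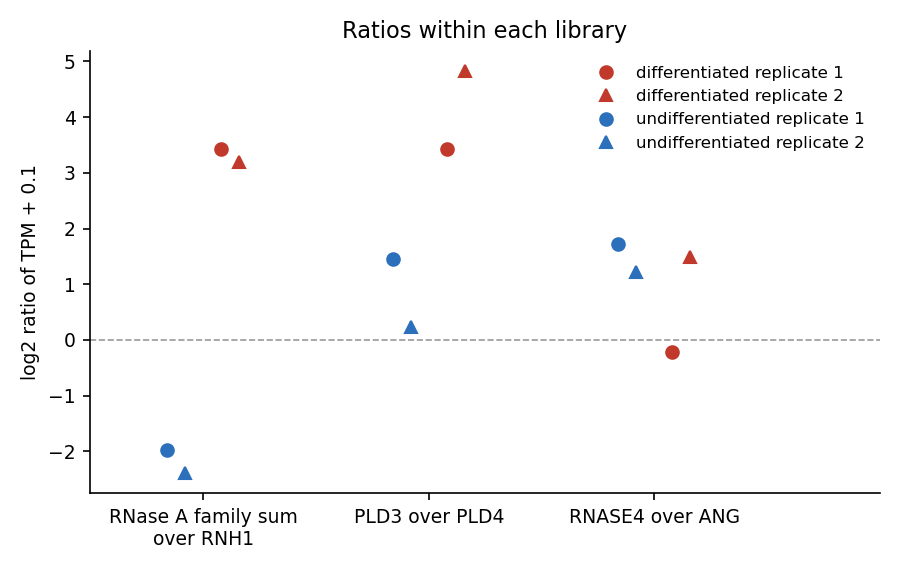
Log2 ratios within each library, with 0.1 TPM added to numerator and denominator: the RNase A family sum over RNH1, PLD3 over PLD4, and RNASE4 over ANG. Colours and symbols mark stage and replicate. The first ratio lies at 3.42 and 3.20 after and at -1.97 and -2.39 before differentiation, whereas the RNASE4 to ANG ratios overlap.

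Of 8 other genes of nucleic acid breakdown in the lysosome, 5 were tested, 3 were higher, 1 lower and 1 not called, where 18.6% of all tested genes were higher and 22.8% lower. The lower one is PLD4, which passed the filter through the undifferentiated libraries. The 5 tested had a median log2 difference of 1.12 where all tested genes had -0.14. SIDT2 in this list, and DNASE1L1 and SAMHD1 among the other nucleases described next, were below 1 TPM before differentiation and passed it through the differentiated libraries. SIDT2, a lysosomal membrane protein that takes up RNA, was listed at 4.51 and 5.16 TPM after differentiation, against 0.59 and 0.20 TPM before it (log2 difference 2.08, adjusted p = 0.000263). ACP2, a lysosomal acid phosphatase, was listed at 5.23 and 4.92 TPM against 1.61 and 0.96 TPM (adjusted p = 0.00787). LAMP2, a lysosomal membrane protein, was listed at 10.78 and 14.86 TPM against 6.9 and 4 TPM (adjusted p = 0.04). The ACP2 call was lost with no filter (adjusted p = 0.0745) and without differentiated replicate 1 (adjusted p = 0.183) or 2 (adjusted p = 0.178), and the LAMP2 call with no filter (adjusted p = 0.171) and without differentiated replicate 1 (adjusted p = 0.291) or 2 (adjusted p = 0.483) or undifferentiated replicate 2 (adjusted p = 0.0651). SLC29A3, the lysosomal nucleoside exporter, was not called at 1.23 and 2.18 TPM against 0.79 and 0.51 TPM.

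Of 21 nucleases of the cytosol, nucleus, mitochondria and extracellular space, 13 were tested, with 3 higher, 2 lower and 8 not called, counts near the 18.6% and 22.8% of all tested genes. They had a median log2 difference of -0.24. SAMHD1, which cleaves dNTPs, was higher at 6.04 and 5.83 TPM against 0.19 and 0.04 TPM (adjusted p = 3.3e-05). The cytosolic DNA exonuclease TREX1 was higher at 7.33 and 6.90 TPM against 2.27 and 0.92 TPM (adjusted p = 0.00452), a call lost with no filter (adjusted p = 0.0861) and without differentiated replicate 1 (adjusted p = 0.196) or 2 (adjusted p = 0.189). DNASE1L1, a DNase I relative, was higher at 2.64 and 3.15 TPM against 0.76 and 0.23 TPM (adjusted p = 0.00221), a call lost with no filter (adjusted p = 0.0886) and when tested against a 1 log2 unit threshold (adjusted p = 0.439). In the other direction, PNPT1, the mitochondrial polynucleotide phosphorylase, was listed at 1.64 and 2.42 TPM after differentiation, against 28.58 and 21.94 TPM before it, a log2 difference of -3.12 (adjusted p = 4.07e-05). The exoribonuclease ERI1 was lower at 0.98 and 1.14 TPM against 2.92 and 3.66 TPM (adjusted p = 0.0225), a call lost with no filter (adjusted p = 0.101), when rescaled to the protein-coding total (adjusted p = 0.0565) and without differentiated replicate 1 (adjusted p = 0.353) or 2 (adjusted p = 0.301). XRN1, the cytoplasmic 5′ exoribonuclease, was among the most abundant at 9.59 and 4.24 TPM against 13.95 and 6.30 TPM and was not called (adjusted p = 0.436). Against a log2 fold change of 1, TREX1 (adjusted p = 0.27) and ERI1 lost their calls as well.

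Of 10 genes of endosomal nucleic acid sensing, 7 were tested, 6 were higher, 0 lower and CNPY3 was not called, where 18.6% of all tested genes were higher. The 7 had a median log2 difference of 2.43. TLR7 and TLR8 are among the 6 and passed the filter through the differentiated libraries. TLR8, the receptor for RNase T2 products, reached 1.63 and 2.21 TPM after differentiation, where each undifferentiated library had 0.01 TPM, and TLR7 at 4.34 and 5.13 TPM against 0.09 and 0.04 TPM. TLR9 and TLR3 stayed at or below 0.17 TPM in every library. The TLR8 call was lost with no filter on low values (adjusted p = 0.059). RNASET2 mRNA was above TLR8 mRNA in all 4 libraries. The receptor-processing proteases LGMN and CTSB were the most abundant of the list, at 241.38 and 262.79 TPM and at 360.58 and 473.99 TPM after differentiation, and CTSS was listed at 16.00 and 26.93 TPM against 1.21 and 0.64 TPM before it (adjusted p = 2.59e-05).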

How the data were processed

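RNA sequencing of total RNA gave 4 libraries. Per the labels' protocols, stranded libraries were made with the NuGEN Encore Complete kit. The deposited values are TPM, which the authors made with Trimmomatic, STAR and RSEM, per the submitters' processing notes; their versions and settings, the use of strand, the build and the annotation were not given in the sources used here. RSEM splits reads that match several genes by estimate, so values of overlapping genes are uncertain. TPM keep no depth, and an abundant RNA lowers every other value in its library.

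Columns were matched to samples by title. The 10180 of 58302 genes that reached 1 TPM in 2 or more libraries were compared on log2(TPM + 1) with limma 3.58.1 in R 4.3.3 (moderated variances with a trend, two-sided, 2 residual and 10.9 prior degrees of freedom). Genes are called at an adjusted p below 0.05 (Benjamini-Hochberg, over every gene tested). Single ratios had exact permutation tests. Gene types and exons came from GENCODE release 29, in which 58039 IDs were found, and sequences before start sites from RefSeq. The fit was tested on simulated data.

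The 10 genes and the other lists were chosen with earlier results of these data known. Named from each list of related genes were the 2 most abundant members, up to 3 with the largest called rise and up to 2 with the largest called fall. TLR3, TLR7, TLR8, TLR9, UNC93B1, SLC29A3, CNPY3, C17orf49 and single marker genes were named after their values were seen. The alternatives were other pseudocounts, filters, scalings and variance models, a threshold on the fold change, a replicate block, and leaving out each library.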

Additional observations from a re-analysis of the deposited data

How the results depend on the processing

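The 7 called nuclease genes kept a positive difference under all 15 alternatives, with log2 differences of 1.22 to 2.95 for RNASET2, 2.69 to 6.83 for RNASE6, 1.44 to 4.53 for DNASE2, 1.43 to 2.36 for RNASEK, 1.07 to 2.52 for RNH1 and 0.97 to 2.48 for PLD3. The number called higher was 4 with no filter on low values (lost: RNASEK, adjusted p = 0.0503, RNH1, 0.0642, and PLD3, 0.0949), 3 when tested against a log2 fold change of 1, and 3 to 7 with 1 library left out; it was 7 under the other alternatives, and 0 were called lower under any. Rescaling over protein-coding genes brought RNASE4 into the test, where it was not called (log2 difference -0.33, adjusted p = 0.466).

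Over all tested genes, 1890 were higher and 2326 lower. The counts were 687 and 573 with no filter, 1016 and 1420 from 5 TPM, and 698 and 607 against a log2 fold change of 1. Median-of-ratios scaling gave 2915 higher and rescaling over protein-coding genes 4102, where 65.6% of the calls were higher in place of 44.8% and the median log2 difference was 0.37 in place of -0.14. With 1 library left out, 934 to 2714 were higher and 337 to 3818 lower, the lowest counts without differentiated replicate 2. The cause of these shifts was not tested. A stage with 1 library left is assumed to vary like the other.

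The log2 difference of the RNase A family to RNH1 ratio was 4.49 to 5.68 with other pseudocounts and 5.28 to 5.69 with 1 library left out. That of the RNASE4 to ANG ratio ranged from -1.69 to 0.01, reversing without differentiated replicate 1. Libraries of the 2 stages share replicate numbers, and deviations of the same-numbered libraries were not correlated (r = -0.02 across genes). Whether same-numbered libraries were prepared together is not stated, and this correlation cannot decide it. With the replicate block, 1730 genes were higher and 2036 lower, and 7 nuclease genes remained called. The LAMP2 call was lost (adjusted p = 0.0813), and the ratio differences stayed at 5.49 and -0.84 by construction.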
